A study of Onthophagus taurus with 66 samples.

Results

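The lateral posterior (LatP) and medial posterior (MP) dorsal head of male *Onthophagus taurus* pre-pupae were compared, in 18 of the 66 libraries of the series. The 18 were taken by their labels, and are 12 LatP libraries, 1 from the left and 1 from the right side of each of 6 males, and 6 MP libraries, 1 from each of the same males. Each library holds messenger RNA of 1 piece of 1 animal, and the number in a library's name is the animal, so that 3 pieces come from each male. All 6 males were large pre-pupae in the last hours before the moult to the pupa, from laboratory colonies set up with wild-caught beetles, and none carried an allele or received a treatment named in the labels. The pieces are meant to hold epithelium alone, since eye, brain and muscle were dissected off by hand. Where females, the lateral anterior (LatA) or the medial anterior (MA) head are named below, their libraries come from 5 females of the same stage, likewise without a named treatment, or from the same 6 males.

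Horned beetles of this genus grow their head horns from the epithelium of the dorsal head at the end of larval life. In large males of *O. taurus* a pair of horns rises from LatP, next to the compound eyes, while MP lies between the horns and stays hornless, so the contrast sets horn-forming against neighbouring hornless epithelium of the same animal. In insects the development of the eye draws on transcription factors that include Pax6, Atonal and Glass, and ommochromes, pigments made from tryptophan, contribute to eye colour.

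Of 13167 transcripts tested, 73 (0.554%) were called, 58 with more RNA in LatP (0.44%) and 15 with more in MP (0.114%). At an adjusted p under 0.05 alone, without the limit on size, 3.84% of the tested transcripts were higher in LatP and 1.82% in MP. A transcript was called when edgeR's quasi-likelihood test gave an adjusted p under 0.001 and the log2 fold change (log2FC, LatP over MP) was above 2 in size. The LatP side was led by transcription factors of the eye, eye pigment enzymes, photoreceptor proteins, the ligands Wingless and Wnt6, and Toll-6 and other leucine-rich repeat surface proteins. The MP side held the homeobox gene *C15*, the planar polarity kinase *four-jointed*, 4 muscle transcripts and a set of secreted, receptor and transporter genes. In pieces of whole tissue, a lower value can come from fewer cells of a type or from less RNA in each cell, and the 2 cannot be told apart.

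Fitted absolute log2FC ran from 2.00 to 9.03 among the 58 transcripts, with a median of 3.00, and from 2.08 to 7.03 among the 15, with a median of 3.01. For 12 of the 58 and 2 of the 15, no library of the lower region held more than 3 counts, so the fitted value depends on the prior count. With these at their lower bound the median log2FC was 2.89 for the 58 and -3.01 for the 15, and the largest absolute values were 6.01 and 5.14. The median over all transcripts tested was -0.01. LatP-higher transcripts were of low level, with a mean of 0.566 to 46.2 CPM in LatP (counts scaled to library size) and a median of 5.42, and 40 of them averaged under 1 CPM in MP. In MP, the 15 had means from 2.34 to 1218 CPM. In 55 of the 58 the lowest LatP library lay above the highest MP library, and in 10 of the 15 the lowest MP library lay above the highest LatP library, against 1.54% and 0.494% of all transcripts tested. These counts rest on the values that made the calls and are given as a description. All 58 were higher in LatP in each of the 6 males by the mean of left and right (10.3% of all tested), and 14 of the 15 were higher in MP in each (9.08%). The exception, the calcium pump SERCA, is described with the muscle transcripts.

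**Figure D1:**
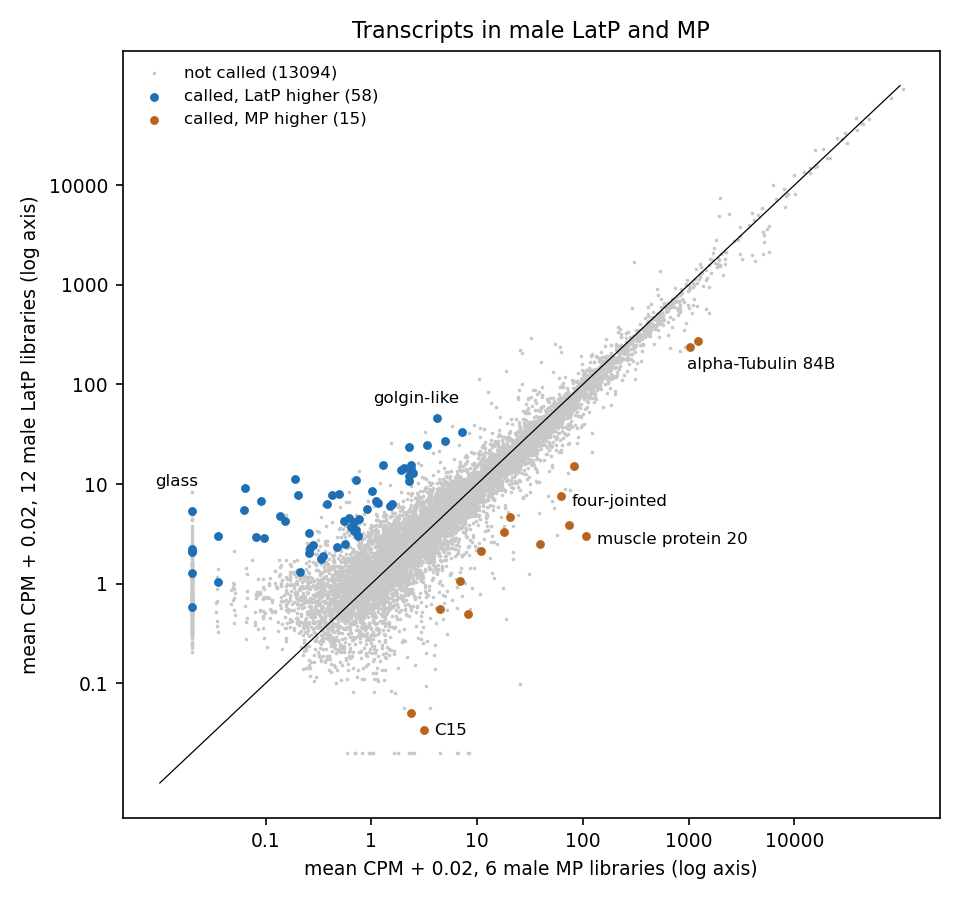
Mean CPM of each tested transcript in the 6 male MP libraries (horizontal) and the 12 male LatP libraries (vertical), on log axes after adding 0.02, with the line of equal levels. The 58 LatP-higher calls (blue) lie mostly at MP means under 1 CPM, and the 15 MP-higher calls (brown) span from Lgr1 at 2.34 CPM to alpha-Tubulin 84B at 1218 CPM in MP.

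Totals of the 18 libraries lay between 11729137 and 17048938 counts. A count of 3, used as the floor of detection in a library, was 0.256 CPM in the smallest of them, and a fold against a region whose libraries all held 3 counts or fewer is given as a lower bound against it, which covers counting error only. Names were at hand for 66 of the 73 called transcripts, from the study's supplementary tables, and lists also took in other transcripts of the named genes. Those tables mostly hold transcripts that the study had found changed on these samples. Counts over named gene lists are therefore no independent evidence of a direction. The label of the tissue could be checked only in part. The 34 cuticle and chitin transcripts, taken as products of epidermis, summed to between 7154 and 12748 CPM in MP and between 6586 and 14211 CPM in LatP. Most of this came from 1 gene that RefSeq leaves uncharacterized. A single transcript of it (XM_023052611.1) read 5297 of the 7154 CPM in MP of male 1. In left LatP of male 4 it read 11110 of the 14211 CPM. The marker lists for epidermis, fat body and trachea matched no named transcript.

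Of 12 tested transcripts on the list of eye specification factors, 5 were called, each higher in LatP, and the median log2FC of the 12 was 6.25 as fitted and 2.52 with 8 transcripts near the floor at their lower bound. *glass* (XM_023044973.1) encodes a zinc finger factor that photoreceptors need to differentiate in *Drosophila*. It had no count in any of the 6 MP libraries, while the LatP libraries ranged from 2.62 to 9.08 CPM (median 4.87). The level in LatP was at least 20.8-fold above the floor (adjusted p = 8.33e-07). Pax6 stands at the head of the eye network, and the transcript of its *twin of eyeless* form (XM_023057035.1) read 0, 0.184, 0.0826, 0, 0 and 0 CPM in the MP of males 1 to 6 and from 4.75 to 12 CPM (median 9.11) in LatP. All 12 LatP libraries were thus far above all 6 MP libraries, at least 36-fold by the means (adjusted p = 2.77e-07).

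*atonal*, the proneural gene of the first photoreceptor of each eye unit and of stretch receptors in *Drosophila*, was represented by 2 genes with 1 gene between them in the RefSeq annotation of assembly IU_Otau_3.0. Reads of such near neighbours of 1 family may be divided between them by the counting, so each value is uncertain. The first (XM_023063666.1) was at 0 in all MP libraries and ranged from 0.785 to 4.84 CPM (median 2.01) in LatP (at least 8.64-fold higher, adjusted p = 8.64e-06). With 1 value per male and the animal as a replicate block, *glass* had an adjusted p of 0.064 and the first *atonal* gene 0.125. The second (XM_023063962.1) reached at most 0.248 CPM in MP and ranged from 2.91 to 14.59 CPM (median 5.07) in LatP (at least 26.5-fold higher, adjusted p = 3.25e-05), and both LatP pieces of male 1, at 14.59 and 14.4 CPM, were the highest. *Big brother* (XM_023057872.1), the partner subunit of Runx factors, read 0, 0.276, 0.248, 0, 0.27 and 0 CPM in MP and from 1.63 to 8.75 CPM (median 4.25) in LatP, at least 16.7-fold higher (adjusted p = 0.000129). Other head and eye factors were present on both sides of the border. *sine oculis* (XM_023063370.1), a homeobox factor that acts downstream of Pax6, averaged 2.01 ± 0.692 CPM in MP and 3.54 ± 1.04 in LatP (SD, n = 6 and 12 libraries; log2FC 0.84 ± 0.26 (SE), adjusted p = 0.0709), and *ocelliless* (XM_023053510.1), the Otx factor of the anterior head, 38.6 ± 12.6 and 46.6 ± 12.4 (log2FC 0.29 ± 0.19 (SE), adjusted p = 0.523). Neither of the latter pair passed the test.

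**Figure D2:**
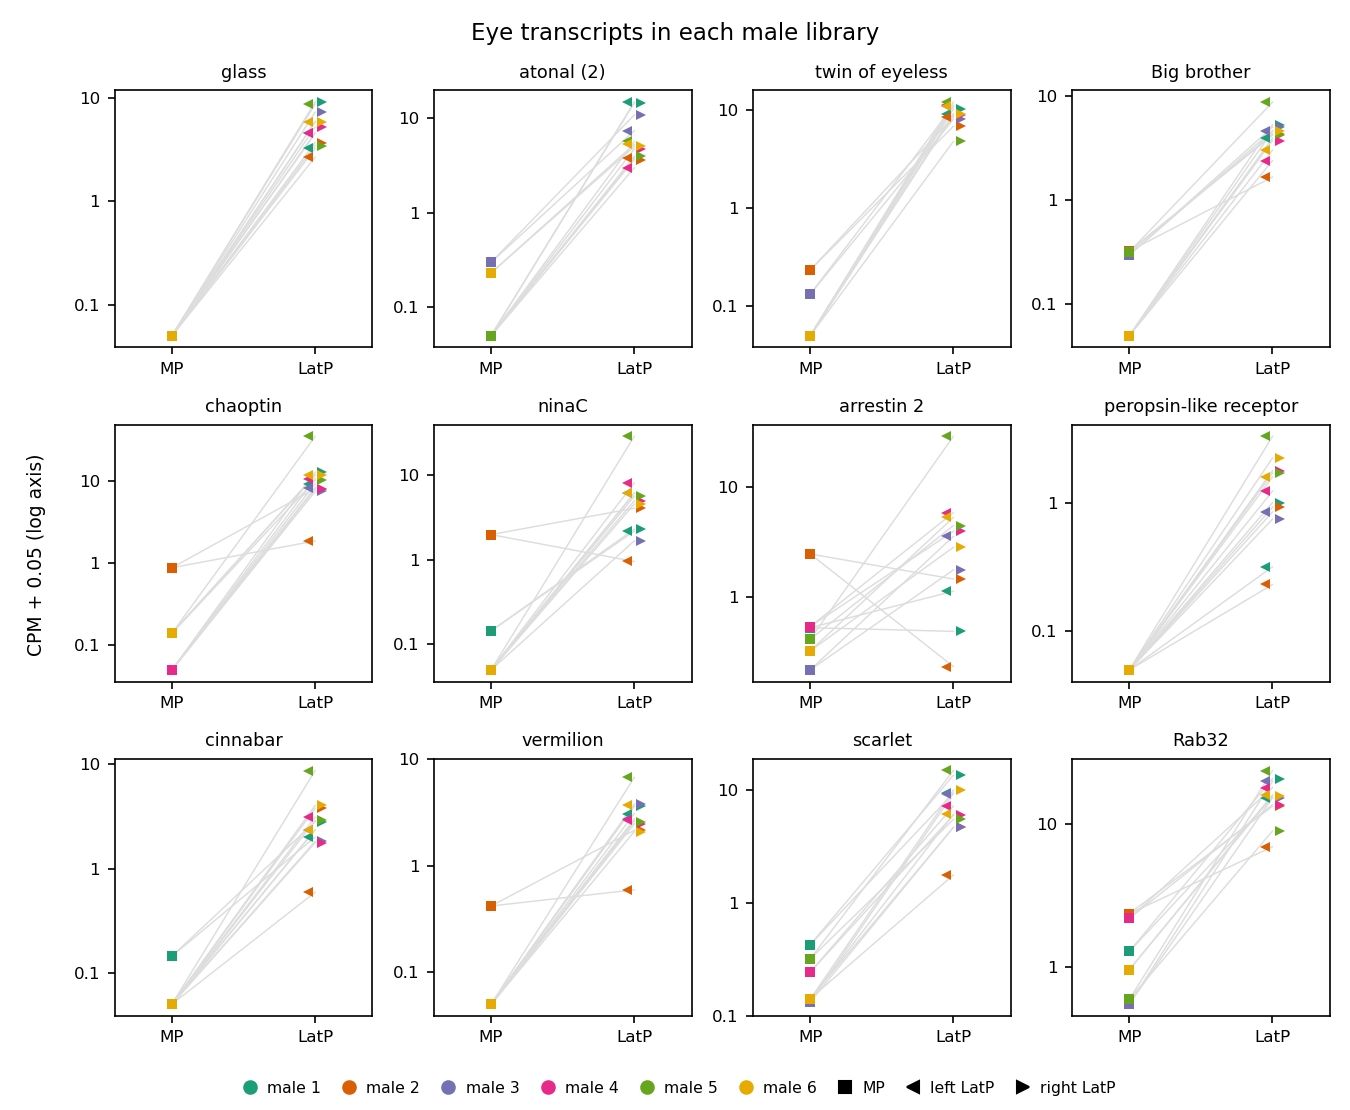
CPM plus 0.05 on a log axis for 12 eye transcripts, 1 panel each, in MP (squares) and in left and right LatP (triangles) of males 1 to 6 (colours), with lines joining the pieces of a male. For glass the 6 MP squares lie at 0 CPM and the 12 LatP triangles at 2.62 to 9.08 CPM, median 4.87, and left LatP of male 5 and of male 2 are the highest and the lowest for chaoptin, ninaC and cinnabar.

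Photoreceptor and phototransduction genes moved in the same direction, with 4 of 8 tested transcripts called, each higher in LatP, and a median log2FC of 4.35 (2.95 with 3 at their bound). At an adjusted p under 0.05 alone, 7 of the 8 were higher in LatP. *chaoptin* (XM_023063565.1), an adhesion protein of the photoreceptor surface, read 0, 0.828, 0, 0, 0.0899 and 0.0901 CPM in MP and from 1.81 to 34.9 CPM (median 9.7) in LatP (log2FC 6.01 ± 0.83 (SE), adjusted p = 0.000136). The groups did not overlap, but the LatP values were uneven, with left LatP of male 2 at 1.81 and left LatP of male 5 at 34.9 CPM. A peropsin-like receptor (XM_023058634.1), of the opsin family by its RefSeq name but with a dopamine and ecdysteroid receptor as best *Drosophila* match, was at 0 in all MP libraries and ranged from 0.181 to 3.23 CPM (median 1.07) in LatP (at least 4.97-fold higher, adjusted p = 0.000251, but 0.193 with 1 value per male and the block). *photoreceptor dehydrogenase* (XM_023052081.1), an enzyme of retinal pigment cells in *Drosophila*, rose from 0.995 ± 0.722 CPM in MP to 8.46 ± 2.47 in LatP (log2FC 3.10 ± 0.38 (SE), adjusted p = 4.73e-05). *golden goal* (XM_023051765.1), which guides photoreceptor axons, rose from 0.24 ± 0.121 to 2.02 ± 1.02 CPM (log2FC 3.04 ± 0.47 (SE), adjusted p = 0.000431).

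Proteins of the working photoreceptor were more variable. *ninaC* (XM_023058611.1), a myosin of the light-sensing membrane, reached 28.6 CPM in left LatP of male 5, lay between 0.905 and 8.03 in the other 11 LatP libraries, and read 1.93 CPM in the MP of male 2 against at most 0.0943 in the other MP libraries. It was not called by edgeR (log2FC 4.20 ± 1.10 (SE), adjusted p = 0.0287), but was without male 2 (fitted log2FC 7.97, adjusted p = 0.000388) and by DESeq2 without a prior (4.19, adjusted p = 0.000337). *arrestin 2* (XM_023048878.1), which quenches rhodopsin, followed the same 2 libraries, at 28.6 CPM in left LatP of male 5 and 2.39 in the MP of male 2, and was not called (log2FC 2.85 ± 0.94 (SE), adjusted p = 0.0934). Summed over the 9 transcripts of the list, the photoreceptor signal was 125 CPM in left LatP of male 5, 10.3 in left LatP of male 2, and between 21.5 and 35.8 in the other 10 LatP libraries. In MP it was 0.87 to 6.26 CPM, the highest being male 2. The eye lay next to LatP and was cut away by hand, and the part that eye tissue left on the pieces took in these values was not tested. Without left LatP of males 2 and 5, an alternative chosen after the values were seen, 49 LatP-higher and 11 MP-higher transcripts were called, and 48 and 11 of these were among the 58 and the 15.

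Eye pigment genes gave 6 calls in 10 tested transcripts, each higher in LatP, with a median log2FC of 4.16 (3.25 with 3 at their bound). They cover the ommochrome path from its first enzyme to the pigment granule. *vermilion* (XM_023063463.1), tryptophan 2,3-dioxygenase, read 0, 0.368, 0, 0, 0 and 0 CPM in MP and from 0.543 to 6.66 CPM (median 2.64) in LatP (log2FC 5.41 ± 0.88 (SE), adjusted p = 0.000688). It lost the call in several settings, among them with the animal as a replicate block (adjusted p = 0.00202) and without the left LatP of males 2 and 5 (adjusted p = 0.00123). The call was also lost when male 1, 3, 4, 5 or 6 was left out (adjusted p from 0.00502 to 0.00714) and with both sides added together (0.0139). *cinnabar* (XM_023049527.1), the next enzyme named here, had 1 count in 1 MP library and none in the other 5, while LatP ranged from 0.543 to 8.68 CPM (median 2.54) (at least 11.6-fold higher, adjusted p = 1.94e-05). *cardinal* (XM_023059806.1), a peroxidase of the last steps, rose from 2.35 ± 1.56 to 15.4 ± 6.39 CPM (log2FC 2.74 ± 0.39 (SE), adjusted p = 0.000216), and the groups overlapped, since the MP of male 1 read 5.47 and left LatP of male 2 read 4.34.

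Transporters and granule proteins went the same way. *scarlet* (XM_023052220.1), an ABC transporter that carries the pigment precursor in *Drosophila*, read 0.377, 0.092, 0.0826, 0.193, 0.27 and 0.0901 CPM in MP and from 1.72 to 14.9 CPM (median 6.61) in LatP (log2FC 5.35 ± 0.51 (SE), adjusted p = 3.22e-06). Its partner *white* (XM_023051901.1) was near the floor, at 0.0291 ± 0.0452 CPM in MP and 0.992 ± 0.888 in LatP, and was not called by edgeR (adjusted p = 0.00308), although the libraries did not overlap. DESeq2 called it without a prior (adjusted p = 3.37e-05) and with one (adjusted p = 4.24e-06). *Rab32* (XM_023059398.1), a small GTPase of pigment granules, read 1.23, 2.3, 0.496, 2.13, 0.539 and 0.901 CPM in MP and from 6.88 to 23.6 CPM (median 15.4) in LatP (log2FC 3.64 ± 0.37 (SE), adjusted p = 6.06e-06). *mahogany* (XM_023057901.1), a transporter of the amino acid transporter family with an eye colour mutant in *Drosophila*, rose from 0.59 ± 0.223 to 4.56 ± 2.03 CPM (log2FC 2.95 ± 0.38 (SE), adjusted p = 7.65e-05). For *scarlet*, *cinnabar*, *vermilion*, *mahogany* and *cardinal*, left LatP of male 2 was the lowest of the 12 LatP libraries. The sum of the 11 pigment transcripts was 17.2 CPM there, 91.6 in left LatP of male 5 and at most 13.1 in any MP library.

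The Wnt ligands were low in MP and not highest in LatP. *wingless* (XM_023058498.1) read 0, 0.368, 0, 0, 0.0899 and 0 CPM in the MP of males 1 to 6 and from 1.04 to 5.23 CPM (median 2.72) in LatP (log2FC 5.07 ± 0.81 (SE), adjusted p = 0.000639). The call of *wingless* was lost when male 1, 3, 4, 5 or 6 was left out (edgeR adjusted p from 0.00299 to 0.00693). *Wnt6* (XM_023058527.1), its neighbour in the genome with 1 gene between them, read 0.0943, 1.2, 0.413, 0.193, 0.27 and 0.27 in MP and from 3.56 to 15.1 CPM (median 6.98) in LatP (log2FC 4.24 ± 0.49 (SE), adjusted p = 2.33e-05). In the anterior head of the same males both were higher still, *wingless* at 13.2 ± 6.76 CPM in LatA (n = 12 libraries) and 6.18 ± 1.71 in MA (n = 6), and *Wnt6* at 49.3 ± 19.5 and 24.1 ± 4.58. MP was thus the region with the least of either ligand. Of the 12 tested transcripts of the Wnt list, these 2 were called, and the list's median log2FC was 0.13. The receptor *frizzled 4* (XM_023052917.1) averaged 31.5 ± 13.8 CPM in MP and 20.5 ± 5.38 in LatP (log2FC -0.60 ± 0.21 (SE), adjusted p = 0.128), and the signal transducer *dishevelled* (XM_023050771.1) 25.4 ± 4.64 and 16.9 ± 7.72 (log2FC -0.57 ± 0.29 (SE), adjusted p = 0.34). Neither passed the test.

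Head patterning factors gave 4 calls among 23 tested transcripts, with a median log2FC of 0.24. Both genes annotated as *sloppy paired 2*, forkhead factors of head and segment patterning that lie next to each other in the annotation, were higher in LatP. The first (XM_023045958.1) held at most 2 counts in an MP library and ranged from 3.2 to 6.53 CPM (median 5.83) in LatP (at least 21.6-fold higher, adjusted p = 8.33e-07), and the second (XM_023045956.1) read 0.0943, 0, 0.165, 0, 0.36 and 0.0901 CPM in MP and from 2.39 to 7.23 CPM (median 4.21) in LatP (log2FC 5.21 ± 0.57 (SE), adjusted p = 1.24e-05). *ladybird early* (XM_023060332.1), a homeobox factor named here by its best *Drosophila* match, was at 0 in MP and between 0.127 and 1.39 CPM in LatP, at least 2.21-fold above the floor (adjusted p = 0.000601, and adjusted p = 0.00423 with the replicate block, where it was no longer called). Its level in LatA was 5.67 ± 3.28 CPM. The fourth call was *C15*, higher in MP, whose gene lies near that of *ladybird early* with 2 genes between them.

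The levels in LatA and MA, which the contrast did not use, differed among the 58 LatP-higher transcripts. For 17 of the 58 both anterior means were under 1 CPM, among them *glass*, both *atonal* genes, *twin of eyeless*, *chaoptin*, *scarlet* and *cinnabar*. For 43 of the 58 the MP mean was the lowest of the 4 regions, a rank that the call, which chose low MP values, largely fixes. LatA averaged above LatP for 9 of the 58 and MA for 5, counts that the call, which chose high LatP values, also partly fixes. *shaven* (XM_023044437.1), a Pax factor of sensory organ development in *Drosophila*, averaged 3.65 ± 0.658 CPM in LatP, 3.55 ± 0.742 in LatA and 3.71 ± 0.584 in MA but 0.622 ± 0.198 in MP. It was picked after its values were seen. All 15 MP-higher transcripts had their highest mean of the 4 regions in MP, where the call had chosen high values.

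**Figure D3:**
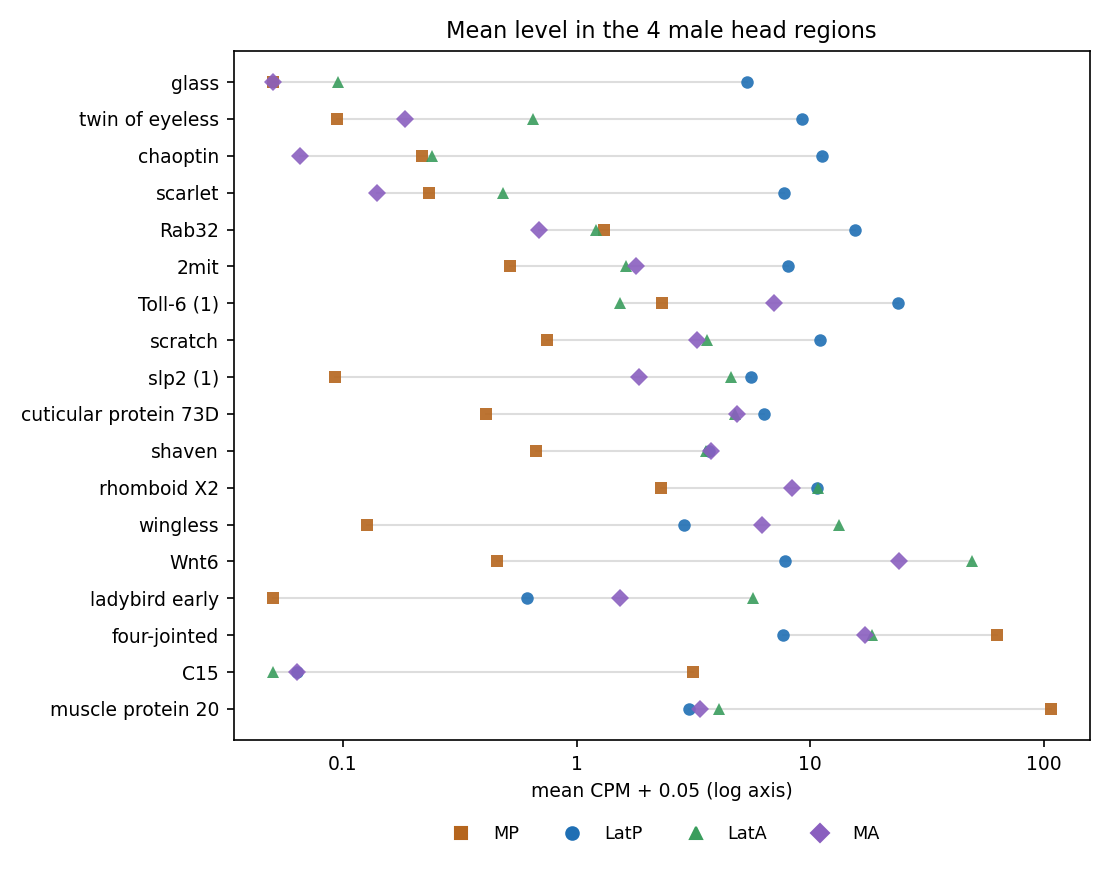
Mean CPM plus 0.05 on a log axis for 18 transcripts in MP (6 libraries), LatP (12), LatA (12) and MA (6) of the 6 males, without error bars. Eye transcripts such as chaoptin (11.2 CPM in LatP) stand alone in LatP, wingless, Wnt6 and ladybird early are highest in LatA, shaven is about level in 3 regions and low in MP, and four-jointed, C15 and muscle protein 20 are highest in MP.

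Leucine-rich repeat surface proteins made up 8 of the calls, from 14 tested transcripts, 7 higher in LatP and 1 in MP, and the median log2FC of the list was 2.48 (2.17 with 2 at their bound). *chaoptin*, above, is 1 of the 7. The Toll-6 receptor, which guides the orientation of cell contacts in the *Drosophila* embryo, was annotated on the 3 transcripts described here. RefSeq also gives that name to the transcript described below as *2mit*. The 3 may share reads, and 2 of them belong to genes next to each other. The first (XM_023052296.1) read 1.98, 1.47, 2.31, 3.77, 1.53 and 2.52 CPM in MP and from 11.7 to 41 CPM (median 22.5) in LatP (log2FC 3.40 ± 0.29 (SE), adjusted p = 1.10e-06). The second (XM_023052295.1) read 4.06, 5.06, 3.47, 7.16, 4.49 and 5.41 in MP and from 18.7 to 44.7 CPM (median 24.6) in LatP (log2FC 2.46 ± 0.22 (SE), adjusted p = 1.71e-06). For all 3 the left LatP of males 2 and 4 were the highest libraries, and the third (XM_023044511.1) went from 1.13 ± 0.551 to 6.43 ± 2.63 CPM (log2FC 2.51 ± 0.31 (SE), adjusted p = 5.07e-05).

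*2mit* (XM_023063740.1), a transmembrane protein of the same class, is named toll-like receptor 6 by RefSeq. It read 0.566, 0.46, 0.33, 0.387, 0.809 and 0.27 CPM in MP and from 4.5 to 16 CPM (median 7.42) in LatP (log2FC 4.09 ± 0.30 (SE), adjusted p = 2.77e-07). *reduced ocelli* (XM_023051653.1), named for a mutant with small ocelli, rose from 0.67 ± 0.3203 to 4.18 ± 1.2 CPM (log2FC 2.64 ± 0.32 (SE), adjusted p = 4.46e-05), and *Fish-lips* (XM_023059293.1) from 1.08 ± 0.277 to 6.72 ± 4.99 (log2FC 2.65 ± 0.42 (SE), adjusted p = 0.000614), with right LatP of male 5 at 21.2. The EGF receptor path gave 1 call in 4 tested transcripts, and all 4 had an adjusted p under 0.05 with LatP higher. A rhomboid protease (XM_023060989.1), of the family that releases EGF receptor ligands, read 3.49, 2.21, 1.57, 2.51, 1.71 and 1.98 CPM in MP and from 7.03 to 14.58 CPM (median 11) in LatP (log2FC 2.26 ± 0.20 (SE), adjusted p = 1.10e-06). A second transcript of that gene (XM_023060988.1) and the secreted inhibitor *argos* (XM_023055616.1) were low, at 1.56 ± 0.681 and 1.08 ± 0.48 CPM in LatP against 0.278 ± 0.275 and 0.152 ± 0.181 in MP (adjusted p = 0.0417 and 0.0236). Both were called by DESeq2 without a prior (adjusted p = 4.67e-05 and 2.42e-05).

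Neuronal genes gave 5 calls in 13 tested transcripts, 4 higher in LatP and 1 in MP. *scratch* (XM_023053479.1), a Snail-family factor of neurons, read 0.849, 0.828, 0.578, 0.29, 1.26 and 0.36 CPM in MP and from 5.96 to 17.4 CPM (median 10.02) in LatP (log2FC 3.99 ± 0.33 (SE), adjusted p = 8.33e-07). *nervous fingers 2* (XM_023055831.1), a zinc finger factor, rose from 0.534 ± 0.41 to 4.2 ± 0.991 CPM (log2FC 2.96 ± 0.39 (SE), adjusted p = 9.34e-05), and neuroligin-4 (XM_023059781.1), a synaptic adhesion protein, from 0.664 ± 0.177 to 3.33 ± 0.711 (log2FC 2.33 ± 0.22 (SE), adjusted p = 3.22e-06). For *found in neurons* the call belonged to 1 of 7 tested transcripts of the gene. That isoform (XM_023059495.1) rose from 0.747 ± 0.659 to 4.46 ± 1.42 CPM (log2FC 2.59 ± 0.40 (SE), adjusted p = 0.000392), while over all transcripts the gene went from 29.4 to 40.4 CPM (log2FC 0.47, adjusted p = 0.00142). *glial cells missing* (XM_023057812.1), the switch to glia in *Drosophila*, rose from 0.246 ± 0.121 to 2.29 ± 0.675 CPM (log2FC 3.19 ± 0.35 (SE), adjusted p = 1.24e-05). Of 27 cuticle and chitin transcripts tested, 1 was called, *cuticular protein 73D* (XM_023058509.1), which read 0.472, 0.644, 0.413, 0.0967, 0.27 and 0.27 CPM in MP and from 3.88 to 9.24 CPM (median 6.11) in LatP (log2FC 4.1 ± 0.33 (SE), adjusted p = 6.36e-07).

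Transcripts on no list or marker set numbered 25 of the 58. XM_023054391.1, 1 of the genes that the study marked as restricted to its lineage, was at 0 in MP and ranged from 0.181 to 4.18 CPM (median 2.18) in LatP (adjusted p = 6.12e-05). XM_023062884.1, of unknown product, had 1 count in MP in all and averaged 1.03 ± 0.561 CPM in LatP (adjusted p = 0.000505, and adjusted p = 0.00183 with the replicate block). The PRKCA-binding protein (XM_023054491.1), a scaffold of synaptic receptors, was called for 1 isoform, which was at 0 in MP and ranged from 0.943 to 5.45 CPM (median 1.63) in LatP (at least 8.06-fold higher, adjusted p = 1.53e-05). Another isoform of that gene (XM_023054507.1) averaged 0.889 CPM in MP and 0.273 in LatP, and over all its transcripts the gene went from 0.889 to 2.67 CPM (log2FC 1.71, adjusted p = 0.00394), short of the call. Of 9 called transcripts with another tested transcript of the same gene, 6 were called also when counts were summed over the gene. The most abundant of the 58, chosen after its values were seen, was a golgin-like transcript (XM_023048335.1), at 4.34, 5.61, 4.87, 4.64, 1.98 and 3.51 CPM in MP and from 28.9 to 80.3 CPM (median 38.1) in LatP (log2FC 3.48 ± 0.30 (SE), adjusted p = 1.10e-06).

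Surface and cytoskeletal proteins outside the naming rule, picked after their values were seen, were more abundant. *beat-IIIc* (XM_023064820.1), of a family of immunoglobulin proteins that steer motor axons in *Drosophila*, read 1.79, 2.21, 3.22, 2.13, 2.07 and 1.98 CPM in MP and from 7.74 to 15 CPM (median 12.5) in LatP (log2FC 2.44 ± 0.18 (SE), adjusted p = 2.77e-07). *fasciclin 1* (XM_023053807.1), an adhesion protein of nerve and epithelium, read 4.62, 1.29, 3.55, 1.93, 2.7 and 0.631 in MP and from 8.11 to 21 CPM (median 12.8) in LatP (log2FC 2.41 ± 0.33 (SE), adjusted p = 0.000136). Neither gene overlapped between the regions. *ciboulot* (XM_023063886.1), an actin-binding thymosin, rose from 1.998 ± 0.833 to 14.5 ± 8.87 CPM (log2FC 2.88 ± 0.41 (SE), adjusted p = 0.000186). The small heat shock protein *lethal (2) essential for life* (XM_023057772.1) rose from 3.32 ± 1.2 to 24.4 ± 7.03 (log2FC 2.90 ± 0.27 (SE), adjusted p = 2.79e-06). A transcript annotated as retinal dehydrogenase 1 (XM_023044281.1), of the aldehyde dehydrogenase family, rose from 7.14 ± 2.54 to 33.4 ± 13.2 (log2FC 2.25 ± 0.33 (SE), adjusted p = 0.000218). The other 13 LatP-higher transcripts that are not described had log2FC between 2.00 and 3.69 and mean LatP levels of 1.29 to 14.2 CPM.

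On the MP side, *four-jointed* (XM_023064681.1) gave the smallest adjusted p of all 13167 transcripts. It encodes a Golgi kinase that sets planar polarity by modifying the cadherins Fat and Dachsous. The MP of males 1 to 6 read 43.1, 70.4, 55.3, 75.8, 61.1 and 71.3 CPM, and LatP ranged from 3.81 to 10.002 CPM (median 7.86), with 5.87, 8.6, 8.41, 10.002, 7.35 and 9.39 on the left and 3.81, 9.68, 7.87, 7.85, 5.58 and 6.89 on the right. No LatP library came near an MP library (log2FC -3.03 ± 0.17 (SE), adjusted p = 6.14e-09). LatA and MA were between the 2, at 18.4 ± 6.92 and 17.1 ± 4.37 CPM. *C15* (XM_023060389.1), a Tlx-type homeobox factor of the leg tip in *Drosophila*, read 2.73, 5.8, 2.48, 0.29, 5.03 and 2.34 CPM in MP and had 1 count in 2 LatP libraries and none in the other 10, at least 12.2-fold lower in LatP (adjusted p = 1.24e-05). Its lowest MP library was that of male 4. *aristaless* (XM_023054237.1), a homeobox factor of the leg tip as well, fell from 5.61 ± 1.79 CPM in MP to 1.8 ± 0.556 in LatP without overlap, but its size was under the threshold for a call (log2FC -1.61 ± 0.23 (SE), adjusted p = 0.000203).

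*Lgr1* (XM_023046842.1), a receptor of the glycoprotein hormone class, read 0.0943, 2.67, 0.743, 0.0967, 4.4 and 6.04 CPM in MP and at most 0.127 in LatP, where 8 of 12 libraries had no count (at least 9.15-fold lower, adjusted p = 0.000809). Males 2, 5 and 6 had the 3 highest MP values. The type 2 serotonin receptor (XM_023063195.1) read 3.58, 6.07, 6.94, 5.13, 14.9 and 4.33 CPM in MP and from 0.346 to 3.17 CPM (median 0.653) in LatP (log2FC -2.66 ± 0.45 (SE), adjusted p = 0.000943). *ejaculatory bulb protein III* (XM_023055299.1), a small secreted protein, fell from 4.49 ± 1.17 to 0.543 ± 0.253 CPM (log2FC -3.01 ± 0.31 (SE), adjusted p = 7.38e-06). A neuropeptide-like 3 transcript (XM_023046178.1) fell from 18.1 ± 12.5 to 3.29 ± 1.28 (log2FC -2.43 ± 0.36 (SE), adjusted p = 0.000272), while a more abundant one (XM_023046186.1) averaged 833 ± 287 and 581 ± 292 and was not called (adjusted p = 0.498).

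A monocarboxylate transporter (XM_023053748.1) fell from 10.9 ± 5.05 to 2.11 ± 1.17 CPM (log2FC -2.34 ± 0.32 (SE), adjusted p = 0.00014). A cystinosin-like transcript (XM_023060525.1), of the family that exports cystine from lysosomes, read 21.4, 2.76, 8.84, 0.677, 3.87 and 11.5 CPM in MP and from 0.0725 to 1.52 CPM (median 0.312) in LatP (log2FC -4.04 ± 0.65 (SE), adjusted p = 0.000671). It lost the call with the animal as a block (adjusted p = 0.00114 with the replicate block). Abundant transcripts on this side were the structural protein alpha-Tubulin 84B (XM_023051588.1), at 1218 ± 189 CPM in MP and 275 ± 86.5 in LatP (log2FC -2.12 ± 0.20 (SE), adjusted p = 2.00e-06), and an unnamed transcript (XM_023063418.1), at 1026 ± 342 and 239 ± 112 (log2FC -2.08 ± 0.28 (SE), adjusted p = 0.000121). Tubulin genes are alike in sequence, so reads may be divided between copies. The last of the 15 not yet described besides the muscle transcripts, XM_023051557.1, had no name and fell from 20.3 ± 7.39 to 4.65 ± 2.03 CPM (log2FC -2.10 ± 0.27 (SE), adjusted p = 8.41e-05).

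Called muscle transcripts differed widely in MP level between the males. Of 25 tested transcripts of sarcomere and muscle genes, 4 were called, each higher in MP (1 of them with the animal as a replicate block), and 13 had an adjusted p under 0.05 with MP higher, against 1 with LatP higher. The list's median log2FC was -2.50. *muscle protein 20* (XM_023064396.1), a calponin-type protein, read 9.53, 158, 24.5, 14.3, 240.5 and 196 CPM in the MP of males 1 to 6 and from 0.29 to 6.46 CPM (median 2.84) in LatP (log2FC -5.14 ± 0.66 (SE), adjusted p = 6.40e-05). The muscle LIM protein *Mlp84B* (XM_023064401.1), 1 gene away from it in the annotation, read 9.997, 114, 17.3, 5.71, 153 and 149 in MP and from 1.19 to 6.79 CPM (median 3.46) in LatP (log2FC -4.26 ± 0.56 (SE), adjusted p = 9.82e-05). SERCA (XM_023062209.1), the calcium pump of the sarcoplasmic reticulum, read 2.45, 39.4, 10.8, 1.84, 79.5 and 104 in MP and from 0.724 to 4.94 CPM (median 2.17) in LatP (log2FC -3.97 ± 0.65 (SE), adjusted p = 0.000812), and was lower in MP than in the mean of LatP in males 1 and 4. Males 2, 5 and 6 were high and males 1, 3 and 4 low for each of the 3.

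All 3 lost the call with the animal as a replicate block (adjusted p = 0.00141, 0.00363 and 0.0164), and SERCA also lost it when counts were summed over its gene (log2FC -1.30, adjusted p = 0.0139), since another of its transcripts (XM_023062207.1) averaged 17.4 CPM in MP and 22.6 in LatP. *actin 88F* (XM_023048382.1), the actin of flight muscle in *Drosophila*, was less uneven, at 62.5, 77.6, 61, 46.1, 132 and 119 CPM in MP and from 5.67 to 26.1 CPM (median 13.8) in LatP (log2FC -2.43 ± 0.30 (SE), adjusted p = 4.94e-05), and kept the call with the block. The *myosin alkali light chain* (XM_023064614.1), *myosin light chain 2* (XM_023062720.1) and *paramyosin* (XM_023052532.1), the abundant members that edgeR did not call, averaged 75.4 ± 70.5, 123 ± 117 and 72.4 ± 72.2 CPM in MP against 8.65 ± 6.64, 21.1 ± 30.9 and 13 ± 16.3 in LatP (adjusted p = 0.00311, 0.0847 and 0.0539). The first of these was called by DESeq2 without a prior (log2FC -3.13, adjusted p = 9.65e-06), with a prior (-2.16, adjusted p = 5.14e-06) and with all male libraries in 1 model (-3.09, adjusted p = 0.000433).

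**Figure D4:**
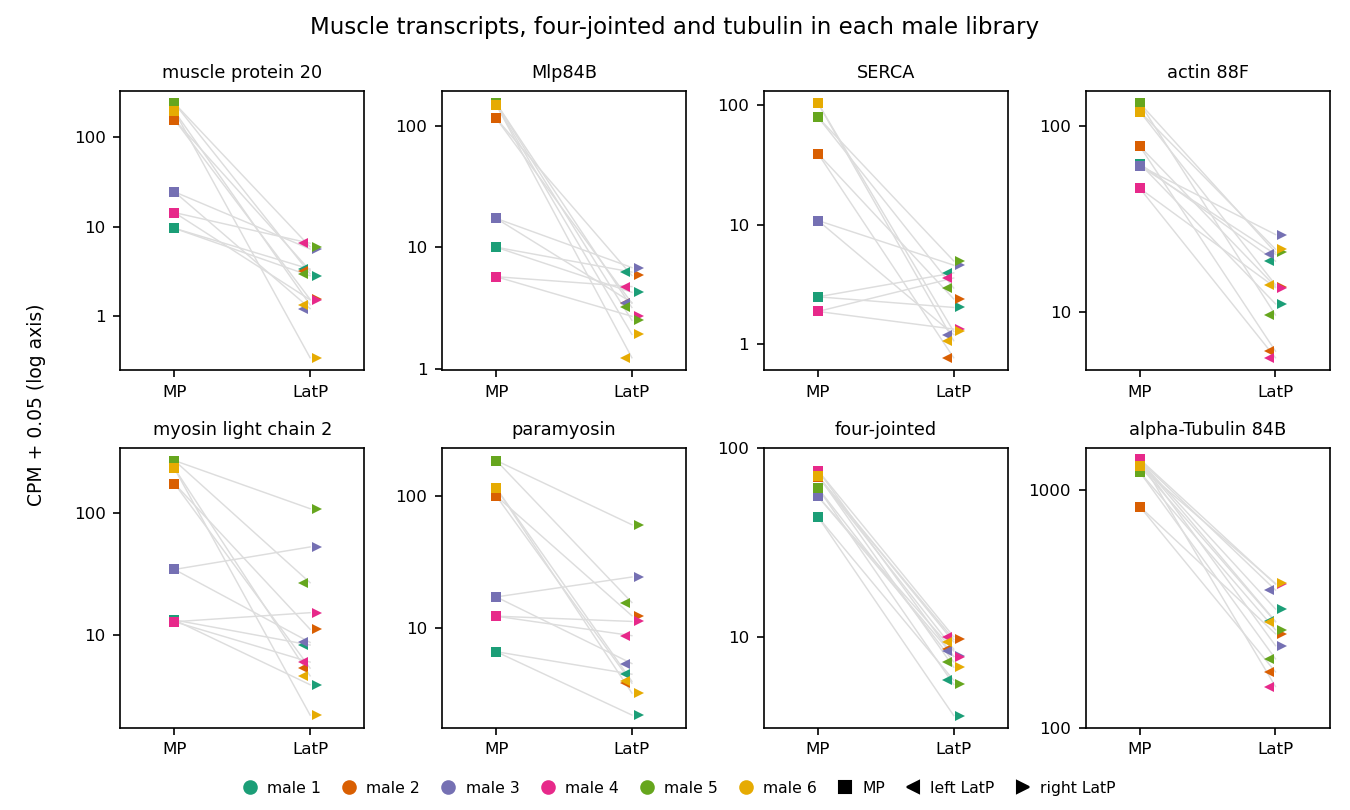
CPM plus 0.05 on a log axis for 6 muscle transcripts, four-jointed and alpha-Tubulin 84B in MP (squares) and left and right LatP (triangles) of males 1 to 6 (colours), with lines joining the pieces of a male. MP of males 2, 5 and 6 lies above MP of males 1, 3 and 4 in each muscle panel, whereas the 6 MP values of four-jointed lie between 43.1 and 75.8 CPM.

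Summed over the 31 muscle transcripts, MP held 217, 1178, 304, 176, 1866 and 1594 CPM in males 1 to 6, and LatP between 77 and 434. The part of muscle left under the epithelium in these values was not tested. Without the MP libraries of males 2, 5 and 6, an alternative chosen after the values were seen, 34 LatP-higher and 3 MP-higher transcripts were called, 29 and 3 of them among the 58 and the 15. Of the 15 MP-higher transcripts 14 were still tested and kept their direction, *Lgr1* no longer passed the filter on low counts, and *four-jointed*, *ejaculatory bulb protein III* and alpha-Tubulin 84B kept the call. *muscle protein 20* was then at log2FC -2.42 (adjusted p = 0.0266), *Mlp84B* at -1.50 (0.0578), SERCA at -1.02 (0.416) and *actin 88F* at -1.88 (0.00577), while *C15* had an adjusted p of 0.00192. A single transcript of blood cells was named, *prophenoloxidase 2* (XM_023052146.1), at 0.0854 to 15.1 CPM, median 3.56, in LatP and 0.472 to 11.6 in MP (adjusted p = 0.896).

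The lists of other pathways known from horns and appendages were short, and at the 0.554% of all tested transcripts that were called, their few members would hold none. By edgeR, 0 of 7 tested transcripts of horn and appendage patterning genes were called, with 3 at an unadjusted p under 0.05, and 0 of 4 of the Hedgehog path, with 1. The same count was 0 of 3 for the Dpp and Notch list, with 2. Its members were *deadpan* and, caught by their names alone, an acyl-CoA Delta(11) desaturase and a delta-sarcoglycan. For the list of cell cycle and DNA replication it was 0 of 3, with 3. These were all transcripts of 1 gene, named S phase cyclin A-associated protein in the endoplasmic reticulum. The Dpp and Notch list and the cell cycle list therefore say little about those pathways. DESeq2 without a prior called no member of any of these lists either. *cubitus interruptus* (XM_023057592.1), the transcription factor of Hedgehog signalling, averaged 12.5 ± 4.65 CPM in MP and 8.89 ± 3.04 in LatP (log2FC -0.47 ± 0.25 (SE), adjusted p = 0.375). At least 3 of the 4 tested Hedgehog transcripts were of this gene, so that list says little beyond it. Another of them (XM_023057586.1) ranged from 9.15 to 27.1 CPM in MP and from 0 to 25.6 in LatP. Reads may be divided between transcripts of 1 gene by the counting. *deadpan* (XM_023061919.1), a Hairy-type repressor of neural stem cells on the Notch list, averaged 1.19 ± 0.772 CPM in MP and 3.93 ± 1.16 in LatP (log2FC 1.75 ± 0.35 (SE), adjusted p = 0.00433), short of a call by both limits. These lists hold few named transcripts, so genes of the pathways that the study did not name are not covered.

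The same animals gave both regions, and with the animal as a replicate block 72 LatP-higher and 15 MP-higher transcripts were called, which took in 54 of the 58 and 11 of the 15. When left and right pieces of a male were added together, 22 and 3 were called, and of the 73 transcripts 72 remained above the filter and in their direction with an adjusted p under 0.05. With the sides added together and the block, 3 and 3 were called, and 52 of the 58 and 11 of the 15 had an adjusted p under 0.05. Those at or above it among the 58 were *glass*, the first *atonal* gene, the peropsin-like receptor, XM_023054391.1 (0.129) and the PRKCA-binding protein isoform (0.132), and 1 of the 58 was not tested. Among the 15 they were *muscle protein 20*, *Mlp84B*, SERCA and the cystinosin-like transcript. Left LatP alone against MP with the block gave 0 and 1 calls by edgeR, the only tool run on it, with 743 transcripts at an adjusted p under 0.05 and 2642 at an unadjusted p under 0.05, and right LatP alone gave 3 and 2. Of the 58, 57 were tested and higher in LatP in each of these comparisons with a single side, 49 of them with an adjusted p under 0.05 on the left and 49 on the right. With 1 male left out at a time, the LatP-higher calls fell to 35, 38 and 34 without male 3, 4 or 6, and the MP-higher calls to 6 and 9 without male 2 or 6. Among those that lost the call in most of these fits were *wingless*, *vermilion*, *chaoptin*, *golden goal*, *Fish-lips* and the serotonin receptor. *Lgr1* and SERCA lost it in each of them.

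Females, which grow no horns at LatP, offer a test in animals that played no part in choosing the 73 transcripts. All 73 were tested there, in 10 LatP and 5 MP libraries. The female fit took both LatP pieces of a female as independent and was not refitted with the animal as a block. Of the 58, 56 were higher in female LatP (51.4% of all tested), 47 had an adjusted p under 0.05 in that direction (2.66%), and 26 were called (0.245%). The median fitted log2FC of the 58 was 3.00 in both sexes, or 2.89 in males and 2.71 in females with transcripts near the floor at their bound. Of the 15 MP-higher transcripts, all were higher in female MP (48.6%), 8 with an adjusted p under 0.05 (0.783%), but edgeR called 0 of them (0.00699% of all tested), with 15 at an unadjusted p under 0.05. Their median log2FC was -3.01 in males and -2.22 in females. *glass* was at 11.5 ± 3.08 CPM in female LatP and at 0 in female MP, *twin of eyeless* at 15.7 ± 5.77 and 0.0236 ± 0.0324 (SD, n = 10 and 5). The called eye, photoreceptor and pigment transcripts all kept their direction in females.

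**Figure D5:**
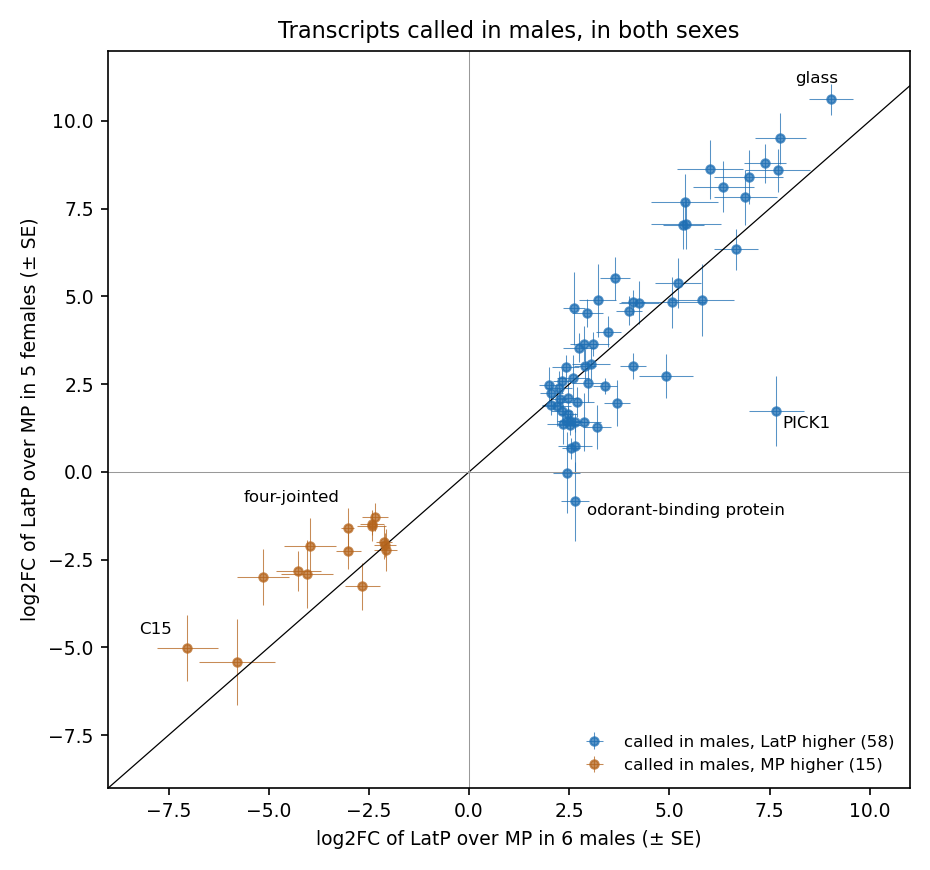
Log2FC of LatP over MP in 6 males (horizontal) and 5 females (vertical) for the 73 transcripts called in males, with bars of 1 SE and the line of equal change. Most points lie near the line, while PICK1 (fitted 7.67 in males, 1.74 in females) and the odorant-binding protein (2.64 and -0.83) lie below it.

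A test of the difference between the sexes found no adjusted p under 0.05 among the 73 by edgeR (the lowest was 0.0514, and 21 had an unadjusted p under 0.05), 5 by DESeq2 without a prior and 8 with the animal as a replicate block. The male values that chose the transcripts also enter this test. *shaven* gave the lowest: it was at 3.31 ± 0.799 CPM in female LatP and 2.06 ± 0.995 in female MP (log2FC 0.67 ± 0.31, adjusted p = 0.322), a difference of 1.88 ± 0.35 (adjusted p = 0.0514, and 0.00306 with the block). The called isoform of the PRKCA-binding protein was at 1.46 ± 1.17 and 0.422 ± 0.429 CPM in females (log2FC 1.74 ± 0.99, adjusted p = 0.479), and the difference from males had an adjusted p of 0.117, or 0.00601 with the block. *four-jointed* varied among the females, at 41.5 ± 34.9 CPM in MP with a range of 8.82 to 97.2 (log2FC -1.61 ± 0.57, adjusted p = 0.168), with an adjusted p of 0.943 for the difference and 9.75e-06 with the block. The 2 transcripts of the 58 that were not higher in female LatP, named after their values were seen, were an odorant-binding protein (XM_023058101.1; log2FC -0.83 ± 1.12, adjusted p = 0.883; sex difference 0.552, and 0.00482 with the block) and a kielin/chordin-like protein (XM_023060863.1; log2FC -0.03 ± 1.15, adjusted p = 0.997). Over all 14852 transcripts in this test, 1 (0.00673%) passed an adjusted p under 0.05.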

How the data were processed

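Single-end, stranded poly(A) reads were made from 1 piece of 1 animal per library. Reads were trimmed with Trimmomatic 0.32, mapped with Bowtie2 2.3.2 to transcript models of the second *O. taurus* genome release and quantified with RSEM 1.3.0, and the authors deposited the resulting expected counts per transcript for all 66 libraries in 1 table of 23725 transcripts. No column of other samples was present. Library totals were 12511767 to 14235510 counts in male MP and 11729137 to 17048938 counts in male LatP.

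Expected counts were rounded to whole numbers. Transcripts above 1 CPM in at least 2 of the 18 libraries were tested with edgeR 4.0.16 (R 4.3.3; TMM scaling, quasi-likelihood F test, Benjamini-Hochberg adjustment over all tested). Calls needed an absolute log2FC above 2 with an adjusted p under 0.001, thresholds taken from the study. As in the study, left and right LatP entered as separate libraries and the animal was not in the model, so that p-values treat 2 pieces of a male as independent. Levels are CPM with TMM scaling over all 66 libraries, and their SD is over libraries. The sex difference was the interaction of sex and region over 33 libraries, called at an adjusted p under 0.05. Scripts were tested on simulated data.

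Pieces of an animal are paired by its number in the library names. Deviations from the group means correlated in all 12 pairs of a LatP and an MP library (mean r 0.316, from 0.196 to 0.4). Between left and right LatP of a male, which the main fit took as independent, r was positive in each male, from 0.111 to 0.374. The male contrast and the sex difference were refitted with the animal as a replicate block, and the contrast within females was not. Other alternatives were DESeq2 1.42.0 with and without a prior, RLE size factors, no filter, both sides added together or 1 side alone, all male libraries in 1 model, counts summed per gene, libraries thinned to the smallest total, looser thresholds, and each male left out. Leaving out the MP libraries of males 2, 5 and 6 or the left LatP libraries of males 2 and 5 was chosen after seeing the data.

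The contrast, gene lists and named transcripts were chosen with earlier results of these data known. The text names called transcripts on a list, the 15 called transcripts with the largest log2FC in each direction that changed in all 6 males, and up to 3 uncalled members a list by level, with exceptions stated. Names came from 380 transcripts in the study's supplementary tables, as RefSeq names and best *Drosophila* matches. Of the 23725 transcripts, 15104 (63.7%) matched a gene of the RefSeq annotation of assembly IU_Otau_3.0, a different build from the authors', which was used only for genes and their order. Lists for the ecdysone response, epidermis, fat body and trachea matched no transcript.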

Additional observations from a re-analysis of the deposited data

Results flagged for a closer look

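Over the 6 males, 19 values lay apart from the other 5 by Dixon's gap test, among 49 sets of MP values and 73 sets of LatP values (mean of left and right) of the transcripts named here. Chance marks about 1 in 20 such sets if values are normal and sets independent. Here CPM was not transformed and the sets share libraries, so the rate by chance is not known. Of the 19, 9 were in MP and 10 in LatP, and 7 of the 10 belonged to male 5. In LatP of male 5, ninaC stood at 17.1 CPM, arrestin 2 at 16.51, cinnabar at 5.77, the serotonin receptor at 2.79, the cystinosin-like transcript at 1.49 and paramyosin at 38.0, each above the other males, while shaven, at 2.82, stood below them. In LatP of other males, Rab32 was low in male 2 (10.1 CPM), 2mit was high in male 1 (12.7) and fasciclin 1 was high in male 1 (18.9). In MP, male 2 was high for ninaC (1.93 CPM), arrestin 2 (2.39) and Wnt6 (1.20) and low for alpha-Tubulin 84B (852). The MP of male 1 was high for cardinal (5.47) and for the called isoform of found in neurons (2.07). The third Toll-6 copy was high in the MP of male 4 (2.22), the serotonin receptor in that of male 5 (14.9) and beat-IIIc in that of male 3 (3.22).

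The 1 transcript whose change from MP to LatP differed between the sexes by edgeR, XM_023063206.1, has no name in the tables used. It averaged 7.72 ± 1.81 CPM in MP and 18.7 ± 3.41 in LatP of males (log2FC 1.29 ± 0.15, adjusted p = 2.84e-05), and 9.16 ± 2.91 and 9.30 ± 1.18 CPM in females (log2FC 0.01 ± 0.18, adjusted p = 0.992). The difference was 1.28 ± 0.23 (adjusted p = 0.0448, and 0.0012 with the animal as a replicate block). It was not among the 73 transcripts, since its change in males was under the threshold of size.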

How the results depend on the processing

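Over the settings run, the number of calls depended on the tool and on how the 2 sides of a male were entered, and the directions of the named transcripts did not, apart from 3 given here. Against 58 LatP-higher and 15 MP-higher calls, DESeq2 without a prior made 146 and 43 and with a prior 75 and 27, 1 model for all male libraries 70 and 23, and looser thresholds (adjusted p under 0.05, absolute log2FC above 1) 335 and 119. Both sides added together gave 22 and 3, the same with the replicate block 3 and 3, left LatP alone with the block 0 and 1, right LatP alone with the block 3 and 2, and all pieces with the block 72 and 15. Adding the sides together or taking 1 side leaves 12 libraries in the model. Leaving out 1 male gave 34 to 52 LatP-higher and 6 to 12 MP-higher calls. Without the MP libraries of males 2, 5 and 6, there were 34 and 3. RLE size factors, no filter, thinned libraries and gene sums stayed within 1.5 times of both counts. The sex difference went from 1 transcript to 250 with the replicate block and 78 by DESeq2; the cause was not tested. Without the MP libraries of males 2, 5 and 6, myosin light chain 2 (log2FC 0.09) and paramyosin (0.13) changed sign, and prophenoloxidase 2 did so in left LatP alone (-0.98); none of them was called. No setting moved the median log2FC of all transcripts by more than 0.1. Transcripts under 1 CPM rest on few reads a library, and a level under 3 counts was not separable from none at this depth.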
